A study of Mus musculus with 2 samples.

Results

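The genes described here encode the proteins of the cytosolic ribosome. They were chosen by name alone: every protein-coding mouse gene whose symbol is Rpl or Rps followed by a subunit number, with Rpsa and Rplp0 to Rplp2, and without the S6 kinases and the symbols that mark pseudogenes. The rule found 83 genes among the 54532 rows of the count table, 51 of the large subunit and 32 of the small subunit. The table comes from 2 bulk RNA-seq libraries of primary CD8+ T cells from the spleens of wild-type (WT) mice. One library is from cells kept for 8 h in RPMI 1640 medium (called complete here), the other from cells kept for 8 h in RPMI 1640 without methionine. The labels call the donors ND mice without spelling the letters out, and they give neither an age nor the number of animals behind either library. With 1 library per medium there is no replicate check, so no value below has a p-value. Intervals after a fold are 95% intervals of counting error only, and a gene is called higher or lower by size, at 1.5-fold.

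A ribosome is built from ribosomal RNA and a single copy of most of its proteins, so the proteins are needed in near equal numbers, and their genes are among the most strongly expressed in dividing cells. Their mRNAs belong to a class that begins with a run of pyrimidines, the terminal oligopyrimidine (TOP) tract, through which the mTORC1 kinase pathway adjusts their translation to the amino acid supply. Activated T cells make many ribosomes as they grow. Because these mRNAs are short, abundant and often copied back into the genome, mammalian genomes hold large numbers of processed pseudogenes of them, intronless copies that can be almost identical to the coding gene.

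The libraries held 14646527 counts in complete medium and 19647681 counts without methionine, where 1 count was worth 0.0681 and 0.0510 CPM (counts per 1000000 of the scaled library). The 5 markers of CD8+ T cells looked at were present in both. Of these, 3 had a ratio below 1 (methionine-free over complete) and 2 a ratio above 1, none by 1.5-fold. Among those below 1, Cd8a was at 664 and 527 CPM and Cd8b1 at 398 and 358 CPM. The 5 B cell markers summed to 205 and 126 CPM in the same order, most of it Ighm, with 2873 and 2354 counts. Of these 5, 3 were at least 1.5-fold lower without methionine, Ighm and Cd79b among them. The share of such calls was 18.1% over the 13041 genes compared in the whole table. A ratio below 1 was found in 4 of the 5 and above 1 in the other 1, which stayed short of 1.5-fold. The interval held 1 in 2 of the 5, and none was at 0. The 5 myeloid markers summed to 15 counts in each library, with Csf1r at 0 in the methionine-free one, and the helper T cell marker Cd4 had 9 and 11 counts. The part of other cell types in the values below was not tested, and in bulk RNA a change in the mix of cells and a change in RNA per cell cannot be told apart.

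Ribosomal protein mRNAs took a slightly larger share of the methionine-free library. The 83 genes held 8.22% of all counts in complete medium and 9.38% without methionine. For the large subunit the share was 4.70% and 5.22%, and for the small subunit 3.52% and 4.16%. Of the 83 genes, 81 had a mean of at least 10 counts and were compared. The remaining 2 were Rpl10l, with 0 counts in both libraries, and Rpl3l, with 0 and 2 counts, both close relatives of a main gene. A count of 0 allows up to 0.204 CPM in the complete library and 0.153 CPM in the methionine-free one.

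The differences were small and lay close together. Of the 81 genes, 59 had a ratio above 1 without methionine, where 52.4% of the 13041 genes compared in the whole table did, and 22 had a ratio below 1, against 47.6%. Only 4 of the 81 were at least 1.5-fold higher, against a background of 15.7%, and 1 was at least 1.5-fold lower, against 18.1%. The 4 higher genes were Rpl39l, Rpl17, Rps27a and Rpl7a, and the lower one was Rpl21. The median log2 difference was 0.21, with quartiles of -0.05 and 0.36, and the median over all genes compared was 0.04. Depth matters for such a reading, since 78 of the 81 genes had a mean of at least 1000 counts. Among the 3987 genes of the table with that depth, 9.46% passed 1.5-fold upward and 9.71% downward, while 56.2% had a ratio above 1 and 43.8% below it. Of the 78 genes, 3 were higher, 1 was lower, 57 had a ratio above 1 and 21 below it. Ratios between 0.8 and its inverse were found in 50 of the 81 genes, against 42.1% of all genes compared, and in 48 of the 78 deeply counted ones, against 54.6% at that depth. The standard deviation of the log2 differences was 0.308 over the 81 genes and 0.539 over the 3987.

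Counting error was small against most of these differences. The interval of the ratio lay above 1 in 56 of the 81 genes and below 1 in 21. It held 1 in the other 4 genes. In the whole table the interval lay above 1 in 35.3% and below 1 in 31.5% of genes, and at a mean of at least 1000 counts in 47.8% and 36.4%. These shares measure the precision of counting within 2 libraries, not the spread between cultures.

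**Figure D1:**
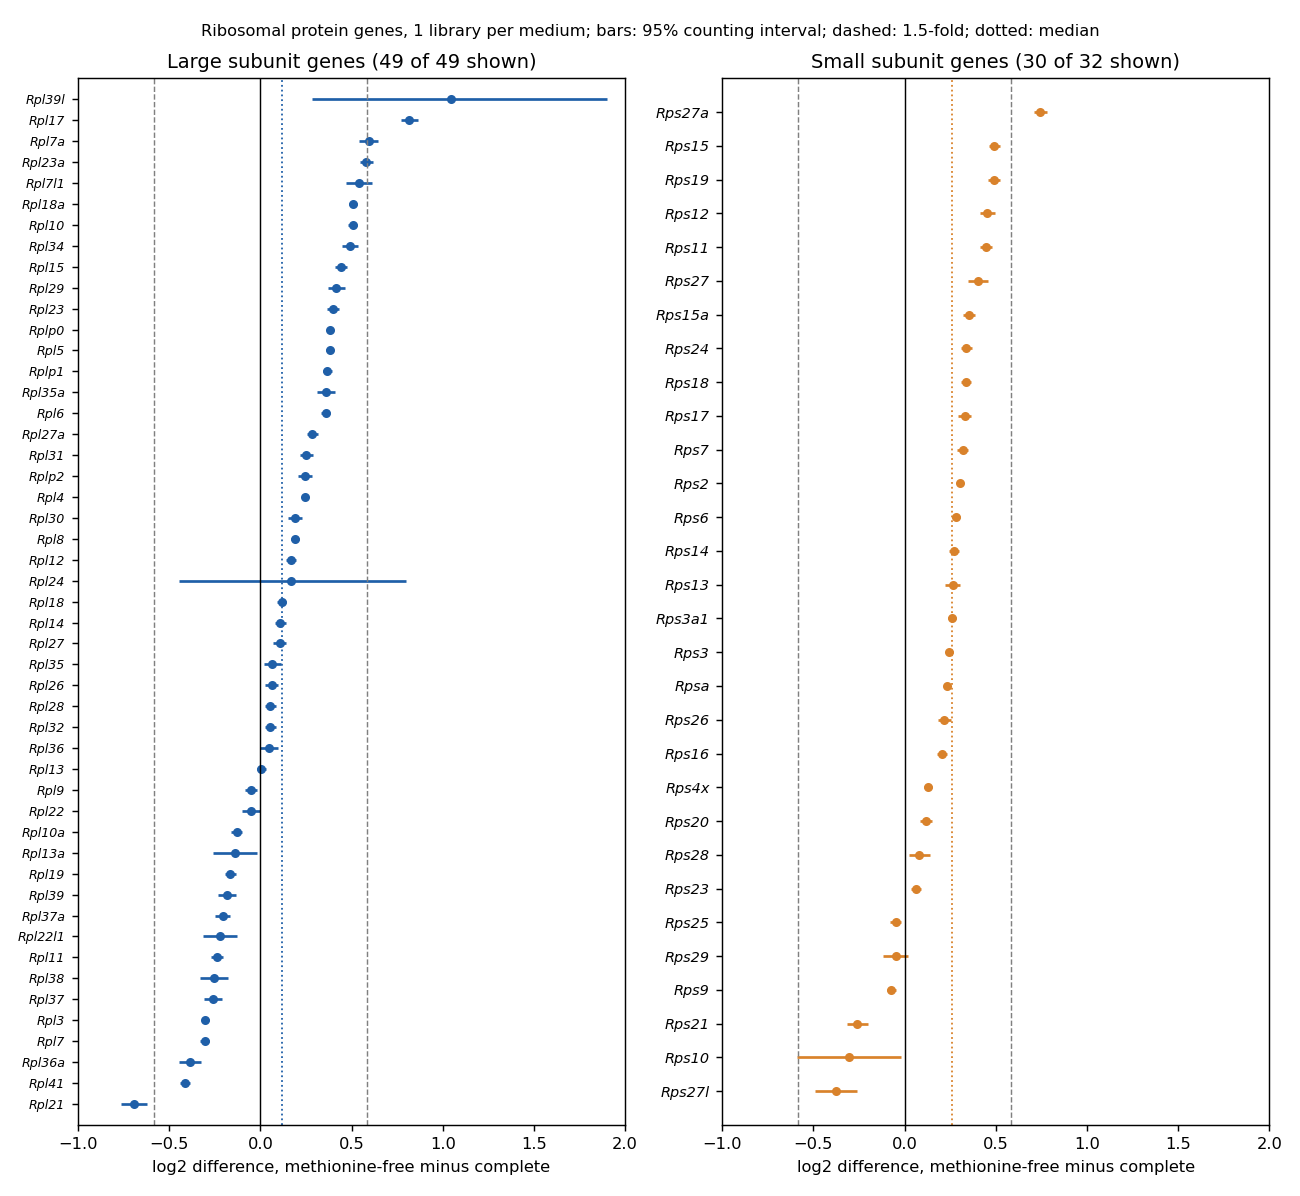
Log2 difference (methionine-free minus complete medium, horizontal axis) of the 49 large subunit genes and 30 of the 32 small subunit genes compared, ordered by value. Points are single-library comparisons, bars are 95% counting intervals, dashed lines mark 1.5-fold and dotted lines the medians over all compared genes of each subunit, 0.12 and 0.26. Most genes lie between the dashed lines, the large subunit genes spread further to both sides, and Rpl39l and Rpl24 have the widest bars.

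The subunits differed in their spread. Of 32 small subunit genes, 26 had a ratio above 1 and the median log2 difference was 0.26, with quartiles of 0.10 and 0.34 and a range from -0.38 to 0.74. Of 49 large subunit genes compared, 33 had a ratio above 1, and the median was 0.12, with quartiles of -0.14 and 0.38. At 1.5-fold, 3 large subunit genes were higher and 1 lower, and 1 small subunit gene was higher. Over all genes compared, 52.4% had a ratio above 1, 15.7% were higher and 18.1% lower. At a mean of at least 1000 counts these shares were 56.2%, 9.46% and 9.71%. The large subunit calls of Rpl17, Rpl7a and Rpl21 ended when counts of their copies, described below, were added. Whether the subunits differ beyond the variation between cultures was not tested.

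Within the large subunit, the stalk genes went one way. The stalk is the flexible arm that recruits translation factors, formed by Rplp0 and the paired acidic proteins Rplp1 and Rplp2 on a base that includes Rpl12. Rplp0 had 51331 and 89268 counts (complete and methionine-free, the order kept from here on), or 3495 and 4556 CPM, a ratio of 1.30 (1.29 to 1.32). Rplp1 had 1279.9 and 1651 CPM, a ratio of 1.29 (1.27 to 1.31). For Rplp2 the values were 587 and 697 CPM, a ratio of 1.19 (1.155 to 1.22). Rpl12 had 1299 and 1459.9 CPM, a ratio of 1.12 (1.10 to 1.145). All 4 ratios were above 1, as were those of 33 of the 49 large subunit genes compared and of 52.4% of all genes compared. None of the 4 reached 1.5-fold, and their median log2 difference was 0.31.

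The genes of the 5S particle went opposite ways. Rpl5 and Rpl11 bind the 5S ribosomal RNA before it joins the large subunit and, when free, bind the p53 regulator Mdm2. Rpl5 had 31238 and 54226 counts, or 2127 and 2767 CPM, a ratio of 1.30 (1.28 to 1.32). Rpl11 had 13971 and 15801 counts, or 951 and 806 CPM, and was 1.18-fold lower without methionine (1.153 to 1.21). Of the exons of Rpl5, 24.3% lie opposite exons of Fam69a, which had 275 and 267 counts, and it is not given whether counting used strand.

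Genes of the peptidyl transferase centre and the tunnel also varied. Rpl3, which reaches towards the catalytic centre, had 2889 and 2343 CPM and was 1.23-fold lower (1.22 to 1.249). Rpl10, which completes the centre late in assembly, had 1169 and 1660.0 CPM, a ratio of 1.42 (1.39 to 1.45). Rpl8, its neighbour, had a ratio of 1.14 (1.12 to 1.16). In the wall of the tunnel through which the new protein leaves, Rpl4 had 3617 and 4288 CPM, a ratio of 1.19 (1.17 to 1.198). Rpl39, a very small protein of the same wall, had 411 and 363 CPM and was 1.13-fold lower (1.09 to 1.17). Rpl17, the other gene of the wall, was called higher, with a ratio of 1.76, and is described with its copies. The 6 genes at the rim of the tunnel exit had a median log2 difference of 0.06, with Rpl23a at the top.

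Rpl23a lay at the edge of the threshold. It had 8378 and 16731 counts, or 570.5 and 854 CPM, a ratio of 1.497 (1.46 to 1.54), just short of the threshold, with a log2 difference of 0.58. Rpl7a was just inside it, with 4679 and 9417 counts, or 319 and 481 CPM, a ratio of 1.508 (1.46 to 1.56) and a log2 difference of 0.59. The intervals of these 2 genes nearly coincide, so the call separates them by less than counting error. Of the exons of Rpl23a, 59.7% lie opposite exons of Tlcd1, which had 240 and 352 counts.

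At the low end stood several large subunit genes with deep counts. Rpl41, which encodes the shortest ribosomal protein, had 18956 and 19002 counts, or 1291 and 969.8 CPM, and was 1.33-fold lower (1.30 to 1.36). Rpl36a had 312 and 238 CPM and was 1.31-fold lower (1.254 to 1.36). Rpl7 had 26937 and 29086 counts, or 1834 and 1484 CPM, and was 1.24-fold lower (1.22 to 1.26). None of these 3 reached 1.5-fold, and their raw counts were similar in both libraries although the methionine-free library was deeper.

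In the small subunit, the genes at the path of the mRNA had ratios a little above 1. Rps2, Rps3 and Rps23, which line the mRNA entry and the decoding centre, had ratios of 1.23, 1.18 and 1.04. At the mRNA exit, Rpsa, Rps14, Rps26 and Rps28 had ratios of 1.17, 1.21, 1.16 and 1.06. Rps6, the classical substrate of the S6 kinases downstream of mTORC1, had 26120 and 42323 counts, or 1779 and 2160.0 CPM, a ratio of 1.21 (1.196 to 1.23).

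The list of beak proteins and ubiquitylation sites spread further, with a median log2 difference of 0.29 over 4 genes. Rps10 was at the low end, 1.24-fold lower, from only 202 and 218 counts. With its copies, described below, its ratio was 1.19. Rps20 and Rps12 had ratios of 1.09 and 1.37, and Rps27a was the one small subunit gene past 1.5-fold. Rps27a encodes ubiquitin joined to a ribosomal protein of the small subunit, so it also supplies ubiquitin. Its 8180 and 18280 counts corresponded to 557 and 933 CPM, a ratio of 1.67 (1.63 to 1.72). Fau, whose product joins a small subunit protein to a ubiquitin-like part and whose symbol lies outside the naming rule, had 10700 and 12503 counts and was 1.14-fold lower (1.11 to 1.17). Rps27a and Fau thus lay on opposite sides of 1.

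Rack1, a signalling scaffold bound to the small subunit that also has no Rps symbol, had 33657 and 64620 counts, a ratio of 1.44 (1.42 to 1.46). Rps27rt, an intronless protein-coding copy of Rps27, had 1589 and 3889 counts, a ratio of 1.83 (1.73 to 1.946). Rpl36al, a coding relative of Rpl36a, had 24 and 17 counts and was 1.88-fold lower (0.97 to 3.74), an interval that holds 1.

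Relatives of the main genes were expressed unevenly. Rpl22l1, whose coding sequence is 67.5% identical to that of Rpl22, stood at 23.4% of the level of Rpl22 per transcript length in complete medium and 20.8% without methionine. Rps27l, 76.1% identical to Rps27 and known as a p53 target, had 1231 and 1265 counts, or 83.8 and 64.6 CPM, and was 1.30-fold lower (1.199 to 1.41). Rps27 itself had 4378 and 7718 counts and a ratio of 1.32 (1.27 to 1.37), so that Rps27l stood at 19.4% of the level of Rps27 in complete medium and at 11.3% without methionine. Rpl7l1, 54.5% identical to Rpl7, had 2254 and 4375 counts, a ratio of 1.45 (1.38 to 1.53), while Rpl7 was lower. Its level was 3.73% and 6.71% of that of Rpl7. Rpl39l, 85.3% identical to Rpl39, had the largest fold and the fewest counts of the 81 genes compared, 19 and 53, or 1.29 and 2.70 CPM, a ratio of 2.09 (1.22 to 3.74). It stood at 0.239% and 0.566% of the level of Rpl39. In the pairs of Rpl7, Rpl39 and Rps27 the relative and the main gene thus lay on opposite sides of 1, with Rpl22 and Rpl22l1 both below it, at 0.965 and 0.857. Rpl3l and Rpl10l gave at most 2 counts, and Rps4l, annotated as a pseudogene, had 70 and 63 counts beside 35283 and 51434 of Rps4x.

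Of the 5 genes called by size, Rpl17, Rpl21 and Rpl7a have heavily counted copies elsewhere in the genome. Copies were searched among annotated pseudogenes, other genes with -ps in an Rpl or Rps symbol, Rps27rt and Rpl36al. A copy needed at least 80% identity to a member over at least 50% of its own length. The annotation held 1834 copies, of which 514 had at least 1 count. Their best matches were 81 of the 83 members, not the same 81 as those compared: Rpl10l had a copy and Rpl39l had none. Together the copies held 104851 counts in complete medium and 161270 without methionine, or 0.716% and 0.821% of each library. Of the 126 copies with a mean of at least 50 counts, the median identity to the parent was 99.5%. Their log2 differences showed no relation to those of the parents, with a Pearson r of -0.02 and a Spearman rho of 0.01 across the 126 copies, which share libraries and partly parents. The sources used here do not give how reads with several matches were counted.

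Single bases tell these copies from their parents. The 90-base stretches below are from the coding sequences of Rpl21 and of Rps10 and from the most counted processed pseudogene of each, shown because few bases separate gene and copy, and capitals mark the differing bases. The Rpl21 stretch is coding bases 289 to 378 of the gene at chr5:146832890-146837032 on the plus strand, and the copy lies at chrX:151215272-151215361 on the minus strand (GRCm38). The whole coding alignment of 483 bases held 3 differences.
Rpl21: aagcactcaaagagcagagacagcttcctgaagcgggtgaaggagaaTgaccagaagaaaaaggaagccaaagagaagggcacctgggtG
Rpl21-ps15: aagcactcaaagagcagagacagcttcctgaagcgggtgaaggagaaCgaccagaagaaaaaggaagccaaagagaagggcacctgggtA
The Rps10 stretch is coding bases 384 to 473 of the gene at chr17:27630418-27636669 on the minus strand, and the copy lies at chr16:20822168-20822257 on the minus strand (GRCm38). All 5 differences of the 496 aligned bases fall in it.
Rps10: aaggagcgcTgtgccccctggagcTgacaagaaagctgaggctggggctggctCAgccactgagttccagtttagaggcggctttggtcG
Rps10-ps2: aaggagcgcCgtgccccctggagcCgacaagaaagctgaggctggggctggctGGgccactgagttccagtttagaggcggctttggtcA

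Rpl21 alone had 3527 and 2913 counts, or 240.2 and 149 CPM, and was 1.62-fold lower (1.54 to 1.70). Its pseudogene Rpl21-ps15 had 2235 and 4004 counts, a ratio of 1.34, in the opposite direction. All 109 copies of Rpl21 together held 45.7% of the counts of gene and copies in complete medium and 64.7% without methionine. The sum of gene and copies had a ratio of 0.953 (0.922 to 0.985). The lower call of Rpl21 thus ended when its copies were counted with it.

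Rpl17 alone had 5395 and 12687 counts, or 367 and 647 CPM, a ratio of 1.76 (1.71 to 1.82). Rpl17-ps3, a processed pseudogene on chromosome 12, had 5563 and 7303 counts, a ratio of 0.984, and Rpl17-ps10, on chromosome 7, had 4830 and 4006 counts, a ratio of 0.622. They are 99.6% and 99.3% identical to Rpl17, and the first had more counts than the gene itself in complete medium. The 78 copies held 66.8% of the counts in complete medium and 48.9% without methionine. The sum had a ratio of 1.14 (1.12 to 1.17).

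Rpl7a followed the pattern of Rpl17 in smaller measure. Its 153 copies held 29.1% and 16.5% of the counts, and the ratio of the sum was 1.28 (1.24 to 1.32), below 1.5-fold. Rps27a kept its call, with a ratio of 1.61 (1.57 to 1.65) for the sum, and its copies held 10.3% and 6.52% of the counts. Rpl39l has no copy under this definition, and 0% of its 75-base stretches occur in another annotated gene.

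With copies added to every gene, 2 of the 81 were at least 1.5-fold higher, none was lower, and 61 had a ratio above 1. The median log2 difference was 0.22 and the standard deviation 0.273. The sign changed in 4 of the 81 genes. Rps10 had 202 and 218 counts alone and was 1.24-fold lower (1.02 to 1.504), while Rps10-ps2 had 2943 and 4736 counts, and the sum had a ratio of 1.19 (1.14 to 1.249). Rps29 went from a log2 difference of -0.05 to 0.23, Rpl9 from -0.05 to 0.01 and Rpl13 from 0.01 to -0.01. In 5 genes the log2 difference moved by more than 0.2. The share of pseudogene reads that came from the coding genes was not tested.

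**Figure D2:**
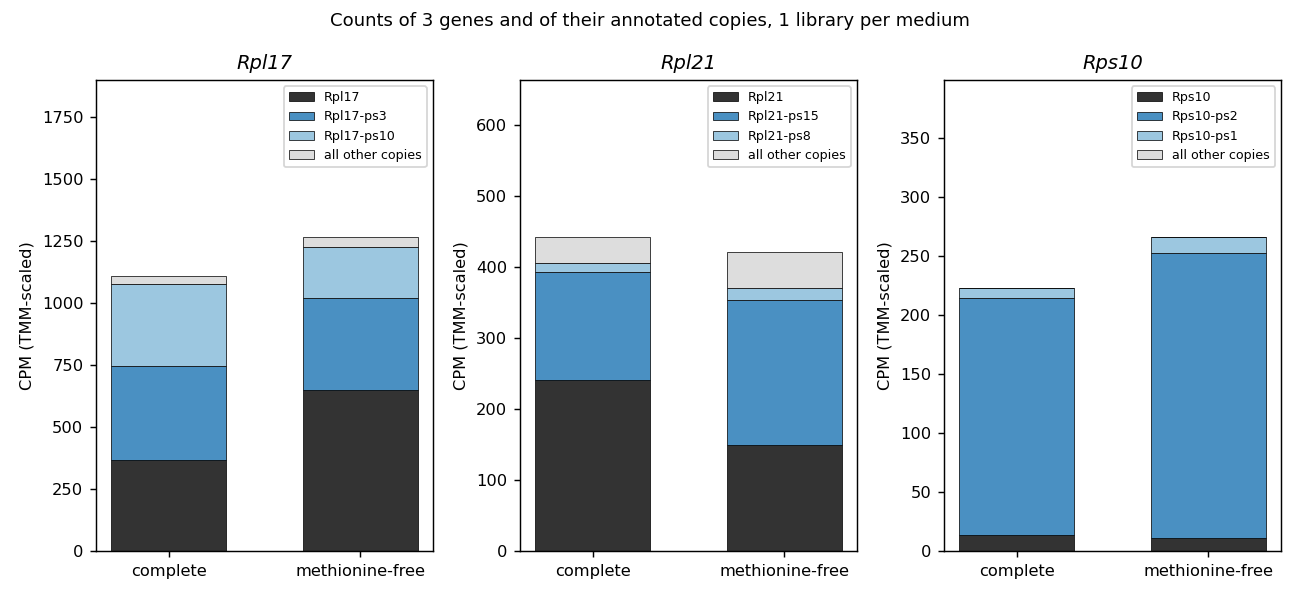
TMM-scaled CPM (vertical axis, from 0) of Rpl17, Rpl21 and Rps10 and of their annotated copies, stacked, in each medium, 1 library each. The dark part, the gene itself, is larger without methionine for Rpl17 and smaller for Rpl21, while the whole bars differ by ratios of 1.14 and 0.953. For Rps10 the gene is a thin strip under Rps10-ps2.

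**Figure D3:**
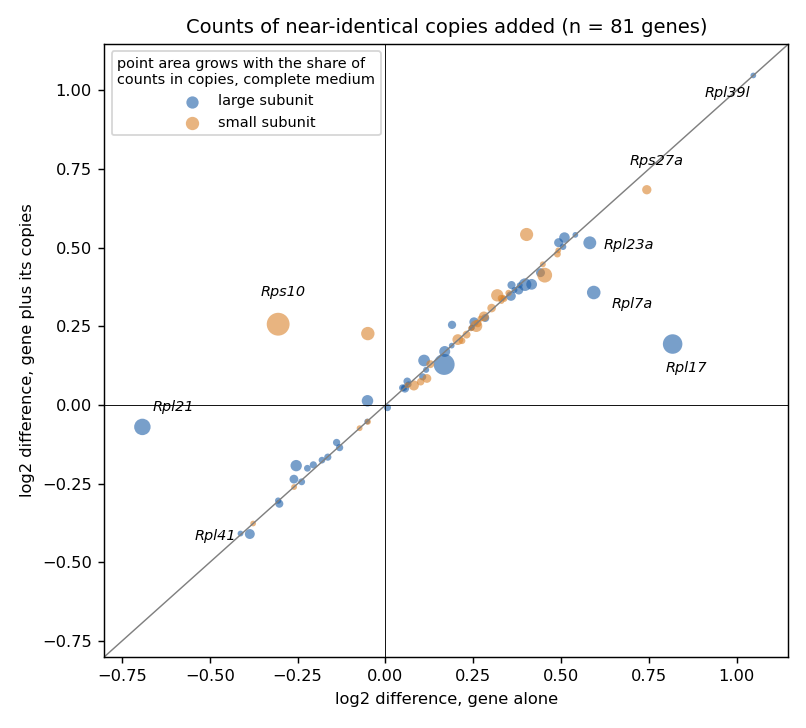
Log2 difference (methionine-free minus complete) of each of the 81 genes alone (horizontal axis) and with the counts of its copies added (vertical axis), coloured by subunit. The grey line marks equal values; Rpl17 and Rpl7a lie below it and Rpl21 and Rps10 above it, while most genes lie on it.

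Other symbols that the naming pattern would take are annotated as pseudogenes and were left out of the members. There were 6 of them. Rps3a2 had the most, with 6339 and 10120 counts, and is 99.5% identical to Rps3a1. Rpl6l had 946 and 1252 counts, Rps3a3 had 228 and 265, Rpl32l had 4 and 1, and Rps12l1 had none. Rps4l is the sixth.

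Levels per length spanned a wide range, though most genes lay close together. Per 1000 bases of merged exons, the 5 highest in complete medium were Rplp1 at 2565 CPM, Rplp0 at 2107, Rpl4 at 1802, Rps3a1 at 1776 and Rps2 at 1535 CPM. Without methionine the same quantity was 3309 CPM for Rplp1, 2746 for Rplp0, 2136 for Rpl4, 2124 for Rps3a1 and 1893 for Rps2. The merged length counts every annotated exon, so a gene with rare long transcripts looks lower. By the length of the main transcript, a choice made after the data were seen, the first 5 in complete medium were Rps2 at 2815 CPM per 1000 bases, Rplp0 at 2574, Rplp1 at 2565, Rps4x at 2464 and Rpl41 at 2373. The order among the highest thus depends on the length used. A main transcript can itself be long, as for Rps20, with 3706 bases for a coding length of 360. On this scale the levels of the 81 genes in the 2 libraries correlated with a Pearson r of 0.986 of log10 values and a Spearman rho of 0.953, as a description across genes that share both libraries.

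Among the genes of core ribosomal proteins, Rpl24 and Rps10 stood far below the rest, and Rpl13a less far. Per 1000 bases of main transcript, Rpl24 had levels of 3.82 and 4.30 CPM, from 38 and 57 counts. Rps10 had 15.5 and 12.5 CPM per 1000 bases, and Rpl13a had 64.5 and 58.6, from 992 and 1202 counts. These 3 were the only members whose coding bases lie under another annotated gene on the same strand, with 82.9% of the coding bases of Rpl24 under Gm28037, 91.6% of Rps10 under RPS10-NUDT3 and 97.5% of Rpl13a under Gm45713. All 3 overlapping genes were listed at 0 counts in both libraries. For every other member the share was 0%. The sources used here do not give whether reads overlapping more than 1 gene were set aside, and its part in these levels was not tested. For Rpl24 the ratio of 1.12 had an interval from 0.733 to 1.74, so its direction was not detectable at this depth.

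**Figure D4:**
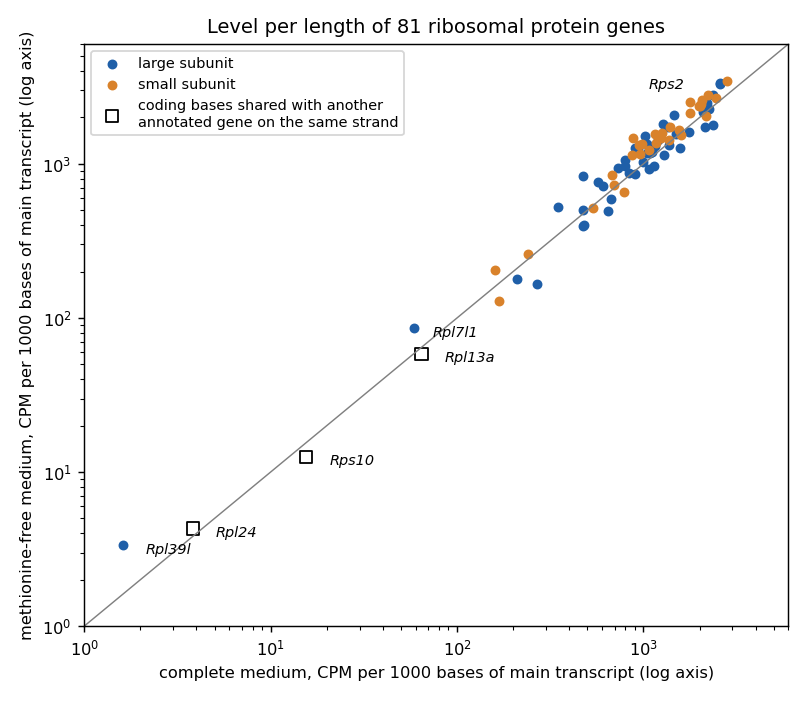
Level of each of the 81 genes in CPM per 1000 bases of main transcript, complete medium on the horizontal and methionine-free medium on the vertical axis, both logarithmic. The grey line marks equal levels, and the open squares are Rpl24, Rps10 and Rpl13a. Rpl39l, Rpl24 and Rps10 lie well below the other genes, and Rpl13a and Rpl7l1 are the next lowest.

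Features of the genes that the naming rule did not use showed weak relations to the differences. Across the 81 genes, the log2 difference had a Pearson r of 0.14 and a Spearman rho of 0.15 with the length of the main mRNA, 0.13 and 0.20 with coding length, and 0.02 and 0.01 with the level per length. The 26 genes with a main transcript under 600 bases had a median log2 difference of 0.07, the 35 genes of 600 to under 1000 bases 0.19, and the 20 longer ones 0.24. The longest class includes genes with a short coding sequence, such as Rps20, with 3706 bases for a coding length of 360. Genes of proteins shared with bacteria numbered 33 and had a median of 0.24, against 0.15 for the other 48. These are descriptions across genes, which share both libraries and are not independent replicates.

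The methionine content of the proteins had little relation to the differences. Counted as in-frame ATG codons, it was highest in Rpl41, with 3 of 25 codons or 12.0%. The log2 difference had a Pearson r of -0.10 and a Spearman rho of -0.04 with this share. Rpl41 itself had a log2 difference of -0.41.

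Many ribosomal protein genes carry small nucleolar RNA (snoRNA) genes in their introns, which guide chemical changes of ribosomal RNA and are released from the same primary transcript. Of the 83 members, 30 held at least 1 annotated snoRNA gene, and these had a median log2 difference of 0.25, with 25 of 30 ratios above 1. The 51 compared genes without one had a median of 0.12 and 34 ratios above 1. The number of snoRNA genes had a Pearson r of 0.14 and a Spearman rho of 0.17 with the log2 difference.

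The starts of these genes were examined because a TOP tract is the feature the family is known for. RefSeq promoter sequences on GRCm38.p6, 300 bases from 250 before to 50 after the start, matched 63 of the 83 members, in 75 entries. A C followed by at least 5 further C or T, beginning within 20 bases of the start on the gene's strand, was found in 60% of the 75 member promoters and in 32.5% of all 32851. The 6 letters CGGAAG, on either strand (CTTCCG on the other) anywhere in the 300 bases, were found in 60% of the member promoters and in 16.9% of all; where CTTCCG lies at the start it can overlap a pyrimidine run. A match describes letters, not a used site. The windows below run from 45 bases before to 15 after the annotated start, for genes at both ends of the order of differences, and capitals mark a pyrimidine run where the rule found one.
Rpl41: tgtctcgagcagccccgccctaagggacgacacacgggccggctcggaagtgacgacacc
Rpl36a: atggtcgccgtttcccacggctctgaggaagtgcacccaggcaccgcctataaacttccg
Rps10: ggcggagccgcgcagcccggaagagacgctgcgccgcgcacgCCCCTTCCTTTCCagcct
Rpl7l1: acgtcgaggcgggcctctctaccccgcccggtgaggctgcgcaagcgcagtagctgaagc
Rpl7a: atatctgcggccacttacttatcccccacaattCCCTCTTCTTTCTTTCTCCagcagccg
They lie at chr10:128549154-128549213 (minus strand) for Rpl41, chrX:134585609-134585668 (plus) for Rpl36a, chr17:27635230-27635289 (minus) for Rps10, chr17:46782642-46782701 (minus) for Rpl7l1 and chr2:26910762-26910821 (plus) for Rpl7a. A run beginning within 20 bases of the annotated start was found in Rps10, lower by counts alone, and in Rpl7a, called higher. None was found in the other 3 windows, and pyrimidines further from the start are not marked. Whether the annotated starts are those used in these cells was not tested, so a window without a run does not show that the mRNA lacks a TOP tract. The 42 compared genes with a run in an entry had a median log2 difference of 0.25 and the 19 without one 0.13. For CGGAAG the medians were 0.24 over 42 genes with it and 0.11 over 19 without it.

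Other mRNAs of the TOP class gave a mixed list. Of 16 such genes outside the ribosome, none was at least 1.5-fold higher (15.7% of all genes compared), 2 were lower (18.1%), 7 had a ratio above 1 (52.4%), and the median log2 difference was -0.05. Their summed level was 39999 and 46502 CPM, higher without methionine as was that of the ribosomal protein genes, at 81991 and 94058 CPM. Much of the sum was Eef1a1, the elongation factor gene, with a ratio of 1.37 (1.36 to 1.37). Vim, a filament protein gene, was 2.02-fold lower (1.93 to 2.10), and Eif3h, of an initiation factor complex, 1.56-fold lower (1.51 to 1.62). Tpt1, the translationally controlled tumour protein gene, had a ratio of 1.45 (1.43 to 1.47). Of 12 regulators of TOP mRNAs and S6 kinases, none passed 1.5-fold in either direction and the median was 0.02. Among them, Larp1, which binds TOP tracts, had a ratio of 1.30 (1.27 to 1.33), and Eif4ebp1, a translational repressor under mTORC1, was 1.42-fold lower (1.351 to 1.49).

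A further list held genes that serve ribosomal proteins before assembly. Of 16 chaperones and importers with enough counts, 2 were higher and 1 was lower, beside 15.7% and 18.1% of all genes. The list is too short to set these counts apart from those shares. Its median was 0.12. Rrs1, needed to load the 5S particle, had a ratio of 1.62 (1.53 to 1.71), and Tsr2, the chaperone of Rps26, of 1.502 (1.354 to 1.67). Ipo5, an importer of ribosomal proteins, was 1.75-fold lower (1.70 to 1.80). For the ribosome of mitochondria, 2 of 77 protein genes with enough counts were higher and 5 lower, against the same 15.7% and 18.1%. A ratio above 1 was found in 37 of them, close to the 52.4% of all genes, and the median was -0.03. Mrpl32 had a ratio of 1.68 (1.49 to 1.91), and Mrpl18 was 1.67-fold lower (1.52 to 1.84). Set beside these lists, the cytosolic ribosomal protein genes had a higher median, 0.21, than any of the 4, and the difference between lists was not tested.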

How the data were processed

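Per the labels' protocols, RNA came from a TRIzol extraction, and the library kit was one for whole RNA or one for mRNA; which kit served which library is not said. The authors deposited raw counts per gene, as whole numbers, for both libraries. The submitters' processing notes name mm10 as genome build. The sources used here give no aligner, counter, strand setting or treatment of reads with several matches. The table's headers, one of them misspelt, were matched to samples by their titles. Identifiers were matched to GENCODE M21 (54495 matched, 37 not).

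Counts were scaled with TMM factors of edgeR 4.0.16 (1.003 and 0.997) in R 4.3.3. Log2 differences used a prior count of 0.5; printed folds did not. Genes needed a mean of 10 counts. Intervals are exact conditional Clopper-Pearson intervals (scipy 1.17.1), and like the floor of 3 counts they cover counting error only. Copies were found with blastn 2.17.0, and 75-base stretches were compared among annotated transcripts only. Folds, intervals and calls were tested on simulated counts with counting error only, scaled by library totals. There the interval held a true fold of 1 in 95.7% of 12867 genes. The simulation had no TMM scaling, no variation between cultures and no reads shared with copies, so it does not test those.

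Named genes were the 6 highest and 6 lowest members with a mean of at least 50 counts, the 5 highest per length, all calls, the stalk, 5S particle, tunnel wall and Rps6, relatives with their partners, genes outside the rule, and at most 3 per comparison list. Other genes were named for their sequence, overlap or copies after their values were seen. Some genes are not reported here by name. The members and lists were chosen with earlier results of these data known.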

Additional observations from a re-analysis of the deposited data

How the results depend on the processing

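DESeq2 1.42.0 size factors, total counts, TMM factors without the members and a prior count of 2 kept all 5 main results (the 2 counts of calls and the 3 medians) and the 30 members that were rerun close to their values; the other members named were not rerun. Without a minimum count 5 members were higher, and at a mean of at least 100 counts 3 were. Adding copies left 2 higher and 0 lower. A 2-fold threshold kept 1 member higher and 0 lower, and the whole table was not counted at 2-fold. A threshold of 0.8 and its inverse counted 27 of the 81 members as higher and 4 as lower. Of the 13041 genes compared in the whole table, 3889 were higher and 3661 lower at that threshold. The share of higher members was thus close to that of all genes, and the share of lower members was smaller. Among members with no gene on the opposite strand and no snoRNA gene inside, 1 was higher and 0 lower, and the median log2 difference was 0.12 for all, 0.055 for the large and 0.30 for the small subunit. Among the 12 compared members with under 10% shared stretches, an alternative chosen after seeing the data, 1 was higher and 0 lower, and the large subunit median was 0.19. Fewer genes entered these last sets. No paired analysis was possible because each medium has 1 library, and for the same reason no library could be left out. Counts limit Rpl39l, Rpl24 and Rps10 most. Elsewhere the missing replicates limit what can be said more than depth does. The unknown treatment of reads shared with copies or overlapping genes, and the unnamed kit of each library, are further limits. Of the compared members, 40 had at least 50% shared stretches.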
